A study of Mus musculus with 6 samples.

Results

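The cytotoxic granule genes are 8 genes whose products fill, package or control the killing granules of natural killer (NK) cells and cytotoxic T cells: Nkg7, Srgn, Gzmb, Gzma, Gzmc, Prf1, Ctsw and Serpinb9. Each is read by 1 probe set, so 8 of the 19937 genes measured on these arrays are described here. They were chosen by their log2 differences between the EVI1 and EGFP arrays, which were already known, so those differences are a description with no test read from them. The study placed 3 arrays labelled EVI1 beside 3 arrays labelled EGFP. All cells of both groups were lineage-negative (Lin-) hematopoietic progenitors of the C57BL6 strain from Rosa26rtTA mice, whose transactivator turns on tetracycline-responsive promoters once doxycycline is added. Cells of the EVI1 group carried the lentiviral vector pRRL.PPT.Tet.Evi1.IRES.EGFP.pre, which encodes the transcription factor EVI1 and the fluorescent protein EGFP, and cells of the EGFP group carried pRRL.PPT.Tet.EGFP.pre, which encodes EGFP alone. The medium of both groups held murine interleukin 3 at 20 ng/ml, and murine stem cell factor, human Flt3 ligand and human interleukin 11 at 50 ng/ml each. Cells of both groups were transduced 24 h after isolation, and doxycycline was added at 1 µg/ml 24 h after transduction. EGFP-positive cells were sorted 20 h after doxycycline by the series' design text, and the treatment protocol gives 24 h from doxycycline to RNA. No age is given in the labels, nor whether replicates were separate animals, cultures or transductions, so their spread may be technical.

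Killer lymphocytes store granzymes, a family of serine proteases, in secretory lysosomes on a scaffold of the proteoglycan serglycin. On contact with a target the granules are released, perforin opens the target membrane and granzymes enter, where granzyme B cuts caspases and other proteins. The same kind of packaging serves mast cells, basophils and neutrophils, whose granules hold related proteases on serglycin, and mouse mast cells are known to make granzyme B.

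The promoters of Nkg7 and Gzmb, the pair of members with the largest differences, and of Prf1, whose groups had nearly equal means, are printed first, because the values below can be read beside them. Each run holds the 250 bases before the RefSeq transcript start on build GRCm38.p6, 5′ to 3′ in the direction of the gene. The windows are chr7:43436888-43437137 on the + strand for Nkg7, chr14:56262335-56262584 on the - strand for Gzmb and chr10:61297586-61297835 on the + strand for Prf1. Capitals mark every match, on either strand, to the motifs named after them.
Nkg7: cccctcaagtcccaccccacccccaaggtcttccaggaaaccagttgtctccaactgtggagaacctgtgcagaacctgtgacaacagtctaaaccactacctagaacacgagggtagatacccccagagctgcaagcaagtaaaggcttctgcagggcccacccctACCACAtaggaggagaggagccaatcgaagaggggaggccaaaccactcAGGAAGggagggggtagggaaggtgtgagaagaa
Gzmb: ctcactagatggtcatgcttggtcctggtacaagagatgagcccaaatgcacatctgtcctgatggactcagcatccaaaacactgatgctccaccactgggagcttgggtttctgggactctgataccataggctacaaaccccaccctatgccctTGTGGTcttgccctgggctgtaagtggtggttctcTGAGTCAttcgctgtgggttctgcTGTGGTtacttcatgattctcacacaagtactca
Prf1: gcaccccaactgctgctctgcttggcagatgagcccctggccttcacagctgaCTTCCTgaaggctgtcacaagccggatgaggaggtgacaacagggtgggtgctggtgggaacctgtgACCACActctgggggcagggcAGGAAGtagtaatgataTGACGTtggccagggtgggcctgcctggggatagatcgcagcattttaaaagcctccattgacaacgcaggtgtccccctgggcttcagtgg

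Motifs searched on both strands were TGTGGT for RUNX factors, AGGAAG for ETS factors, TGANTCA for AP-1, TGACGT for the cyclic AMP response element, AGATAA for GATA factors, and GANAAGATA and GAAGATGAG for the first and second zinc finger domains of EVI1. Of these, TGACGT can overlap its own reverse complement, and GANAAGATA can overlap AGATAA. RefSeq gave 8 such windows for 7 of the members, with 2 for Srgn. The Nkg7 window held a RUNX match 83 to 78 bases before the start and an ETS match 34 to 29 bases before it. In the Gzmb window RUNX matches lay 93 to 88 and 34 to 29 bases before the start, with an AP-1 match between them at 58 to 52 bases. The RUNX letters were found in 6 of the 8 windows, against 14% of 32851 windows of the same length, and the cyclic AMP letters in 3 of 8, against 6.47%. The ETS letters were found in 3 of 8 windows, against 29.5% of all windows, and the AP-1 letters in 1 of 8, against 6.75%. With 8 windows from 7 genes these shares are a description only. None of the 8 windows held the letters of either EVI1 domain, which occurred in 0.825% and 0.347% of all windows, or the GATA letters, which occurred in 9.99%. A match describes letters only, and no match says nothing about binding elsewhere.

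The values are log2 intensities after RMA, a summary of the probes of each probe set, so a difference of 1 is a 2-fold change. Medians of the 6 arrays lay between 7.24 and 7.31, the correlation across genes was 0.976 to 0.990 for arrays of one group, and for arrays of different groups it was 0.942 to 0.959. EGFP replicate 2 had the lowest array weight, 0.452, with 0.874 to 1.55 for the other arrays. The gene that encodes EVI1, Mecom, did not stand higher on arrays with the EVI1 label. Its brighter probe set read 6.29, 6.18 and 6.49 there, against 6.39, 7.53 and 6.86 in the EGFP arrays (p = 0.2 by a two-sided exact permutation test, which cannot go below 0.1). Its other probe set read 6.39, 6.28 and 6.37 in the EVI1 arrays, against 6.66, 6.63 and 6.45 in the EGFP arrays. There all EVI1 arrays were lower than all EGFP arrays (p = 0.1 by the same permutation test). It is unknown whether these probes detect the vector's EVI1, so every direction below follows the labels. No detection calls were used. As a rough floor, the 95th percentile of 1027 olfactory receptor genes, which blood cells are not known to use, was 6.92 to 7.09 on the EVI1 arrays and 6.88 to 7.05 on the EGFP arrays. Every Mecom value but the 7.53 of EGFP replicate 2 was under this floor. Probes differ in brightness, so a level is compared only with the same probe set on other arrays or with this floor. All 8 measured stem and progenitor markers, among them Kit, Cd34 and Flt3, lay above the floor on every array. Mature lymphocyte markers were mixed: 6 of 14 T cell markers and 3 of 6 B cell markers were under the floor on every array, and 6 and 2 of them above it on every array.

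Nkg7 had the largest difference of the 8 genes. It encodes a granule membrane protein that killer cells need for efficient release of their granules. Nkg7 read 8.56, 8.08 and 8.10 in the EVI1 arrays, against 11.13, 11.47 and 11.33 in the EGFP arrays. The lowest EGFP array stood 2.57 log2 units above the highest EVI1 array, so the groups were far apart. Means were 8.25 ± 0.27 in EVI1 arrays and 11.31 ± 0.17 in EGFP arrays (SD, n = 3 each), a log2 difference of -3.06 ± 0.16 (SE), or 8.34-fold lower. Counted from the most negative difference, Nkg7 ranked 6 of 19937 genes. Both groups stayed above the olfactory receptor floor on every array.

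Srgn encodes serglycin, the proteoglycan core that holds proteases in granules of many blood cells. It read 12.73, 12.59 and 12.48 in the EVI1 arrays, against 13.14, 12.99 and 13.12 in the EGFP arrays. All EVI1 values were lower than all EGFP values, with a gap of 0.26 between the groups. The means, 12.60 ± 0.13 in EVI1 arrays and 13.09 ± 0.08 in EGFP arrays (SD, n = 3 each), differed by -0.49 ± 0.11 (SE). That is 1.40-fold lower, on a probe set far above the floor.

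Among the granzymes, Gzmb was bright and lower in EVI1 arrays, whereas Gzma lay under the floor and Gzmc on both sides of it. Gzmb encodes granzyme B, which cuts after aspartate and starts caspase cleavage in target cells. It read 11.36, 10.16 and 11.07 in the EVI1 arrays, against 12.22, 12.19 and 11.89 in the EGFP arrays. The groups did not overlap, and EVI1 replicate 2 was the lowest array by a wide margin. The means were 10.86 ± 0.63 in EVI1 arrays and 12.10 ± 0.18 in EGFP arrays (SD, n = 3 each), a log2 difference of -1.24 ± 0.28 (SE), or 2.36-fold lower. Without EVI1 replicate 2 the difference was -0.89. EVI1 arrays spread over 1.20 log2 units and EGFP arrays over 0.33.

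Gzma encodes granzyme A, a protease that cuts after basic residues and is made by NK cells and activated T cells. Its values were 6.06, 5.84 and 6.07 in the EVI1 arrays, against 6.01, 6.03 and 6.14 in the EGFP arrays. Every array was under the olfactory receptor floor and the groups overlapped, with a log2 difference of -0.07 ± 0.11 (SE). Gzmc encodes granzyme C, a neighbour of granzyme B in sequence family and in the genome. It read 7.35, 6.85 and 6.54 in the EVI1 arrays, against 7.997, 6.62 and 7.15 in the EGFP arrays. The groups overlapped widely, 2 EVI1 arrays and 1 EGFP array were under the floor, and replicate 1 was the highest array in each group. Its log2 difference of -0.34 ± 0.34 (SE) was no larger than its error, and without EGFP replicate 1 it was 0.028. Granzymes of this family are close paralogs, and cross-hybridisation between them was not tested.

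Prf1 encodes perforin, the pore protein without which granzymes do not reach the target cytosol. It read 7.44, 7.49 and 7.63 in the EVI1 arrays, against 7.45, 7.53 and 7.50 in the EGFP arrays. The 2 sets of values interleaved within a total range of 0.18, and all lay just above the floor. The log2 difference was 0.03 ± 0.10 (SE).

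Ctsw encodes cathepsin W, a cysteine protease of NK and CD8 T cells, and was the one member whose EVI1 arrays were all higher. It read 7.24, 7.44 and 7.21 in the EVI1 arrays, against 6.90, 6.80 and 7.03 in the EGFP arrays. The gap between the groups was 0.18, and all 3 EGFP arrays were under the floor while no EVI1 array was. The log2 difference was 0.38 ± 0.12 (SE). Serpinb9, which encodes an inhibitor that shields the cell from its own granzyme B, ran the other way. It read 6.06, 6.28 and 6.46 in the EVI1 arrays, against 7.01, 6.97 and 6.80 in the EGFP arrays. The groups did not overlap, with a log2 difference of -0.66 ± 0.13 (SE), but all 3 EVI1 arrays and 2 of the EGFP arrays lay under the floor, so its size is uncertain.

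**Figure D1:**
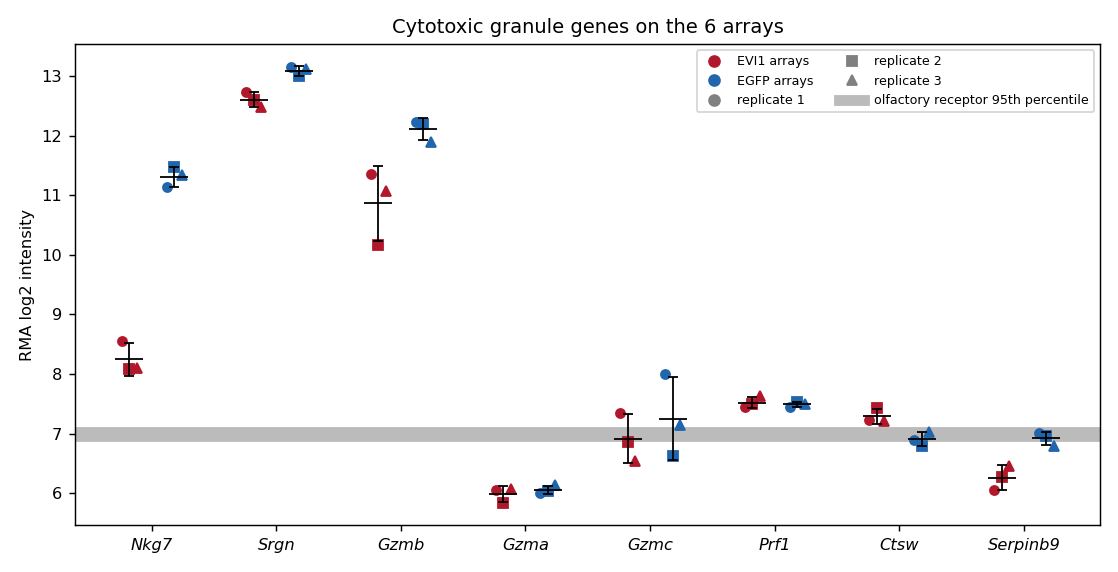
RMA log2 intensity (vertical axis) of each of the 8 genes on the 3 EVI1 arrays (red, left of each pair) and the 3 EGFP arrays (blue), with marker shapes for replicates and black bars for mean ± SD. The grey band spans the olfactory receptor 95th percentiles of the 6 arrays; Nkg7, Srgn and Gzmb lie above it, with EVI1 arrays lower, and the other 5 genes lie in, near or under it.

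Counted over the 8 genes, the limma fit over all genes called 4 lower (Nkg7, Srgn, Gzmb and Serpinb9) and none higher at an adjusted p under 0.05, with 1 (Ctsw) higher at an unadjusted p under 0.05. The same fit called 18.2% of all genes, 9.06% higher and 9.18% lower, and since these differences chose the genes, nothing is read from the count. The median log2 difference was -0.41 over the 8 genes and 0.0060 over all genes. All EVI1 arrays lay under all EGFP arrays for 4 of the 8 genes and above them for 1; 16.5% of all genes had EVI1 arrays all lower, 16.1% all higher and 32.6% either. Nkg7 and Serpinb9 were called whichever array was left out. Gzmb lost its call without EGFP replicate 1 and without EVI1 replicate 3. Srgn lost it in those fits too, and also without replicate 3 of EGFP or replicate 2 of EVI1. The members called were therefore 2 without EGFP replicate 1 (15.2% of all genes) and 2 without EVI1 replicate 3 (11.5%). They were 4 with the replicate number as a block (21.9%), and 5, with Ctsw added, both with trend and robust variance estimation (18% of all genes) and without genes under the 25th percentile of mean level (24.8%). Pairing arrays by replicate number, EVI1 minus EGFP was -2.57, -3.39 and -3.23 for Nkg7 and -0.86, -2.03 and -0.82 for Gzmb. All pairs pointed down for both genes, with the replicate 2 pair lowest in each.

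**Figure D2:**
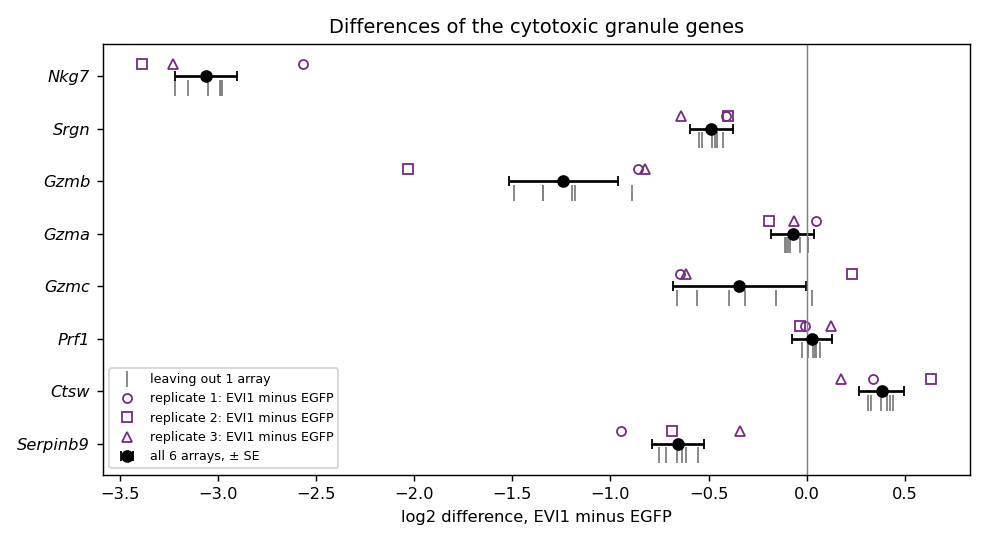
Log2 difference, EVI1 minus EGFP (horizontal axis), for each of the 8 genes: black points with SE bars use all 6 arrays, grey ticks leave out 1 array each, and open purple symbols are the differences within replicate numbers. Nkg7 stays between -3.22 and -2.98 when any array is left out, while Gzmc lies between -0.66 and 0.028.

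Gzmb and Gzmc sit at one end of a run of serine protease genes on chromosome 14 that also holds mast cell proteases and cathepsin G. In RefSeq order this run has 15 protein-coding genes, of which 13 were measured. With the member Gzmb among them 4 fell, none rose by limma or at an unadjusted p under 0.05, and 9 were not called, where 9.18% of all genes fell and 18.2% were called. Those lower were Ctsg, a neutrophil protease (-2.55 ± 0.23 SE, adjusted p = 0.000291), Mcpt8, a basophil protease (-1.34 ± 0.21, adjusted p = 0.00366), Cma1, a mast cell chymase (-1.11 ± 0.22, adjusted p = 0.00926), and Gzmb itself. Ctsg averaged 9.93 ± 0.44 in EVI1 arrays and 12.48 ± 0.26 in EGFP arrays (SD, n = 3 each), and Mcpt8 11.06 ± 0.43 and 12.39 ± 0.19. The granzymes between Ctsg and Gzmb (Gzme, Gzmd, Gzmg, Gzmn, Gzmf and Gzmc) differed by -0.34 to -0.03, and all but Gzmc were under the floor on every array. The 4 lower genes were above the floor on every EGFP array, but for Cma1 2 of the 3 EVI1 arrays were under it, so the size of its difference is uncertain.

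**Figure D3:**
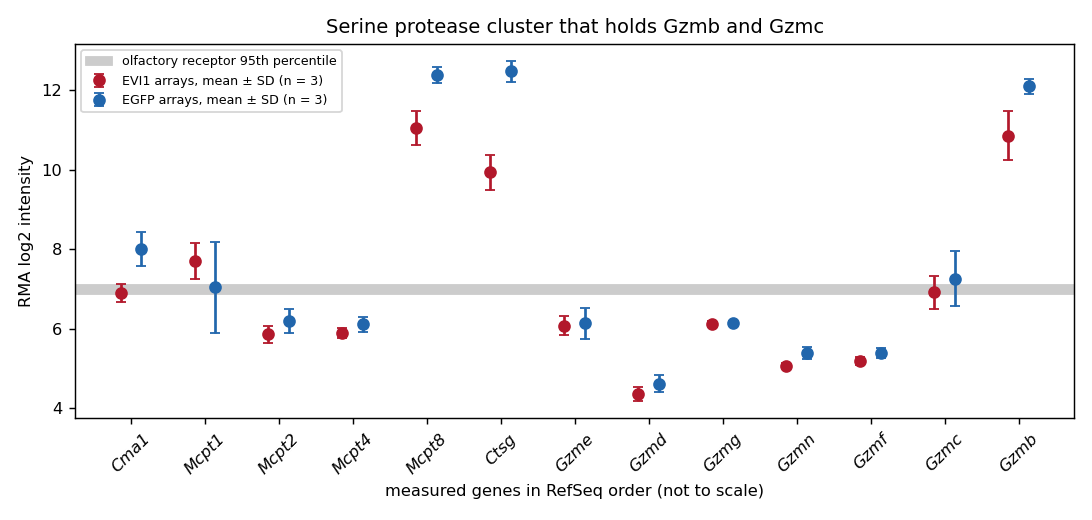
Mean ± SD of the RMA log2 intensity (vertical axis, n = 3 arrays a group) for the 13 measured genes of the protease run, in RefSeq order and not to scale, with EVI1 arrays in red and EGFP arrays in blue. Ctsg, Mcpt8 and Gzmb stand far above the grey olfactory receptor band and are lower in EVI1 arrays; most granzymes lie under the band.

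Genes next to the 8 members gave no common pattern. Of 26 measured genes among the 2 nearest protein-coding genes on each side, members excluded, 4 fell, 1 rose and 21 were not called, against 18.2% called over all genes. The gene after Nkg7, Cldnd2, fell by 0.70 on the log2 scale (adjusted p = 0.00470), and its 3 EVI1 arrays were under the floor. The 2 neighbours measured beside it, Lim2 (-0.07) and Etfb (-0.24), were not called. Next to Serpinb9, Serpinb6b, whose mouse product inhibits granzyme A, fell by 0.90 (adjusted p = 0.00344), while Serpinb9b (0.0058) was not called. Near Srgn, Supv3l1 and Ddx21, both RNA helicase genes, fell by 0.57 and 1.15 (adjusted p = 0.0188 and 0.000438). Gpx8, beside Gzma, rose by 1.02 (adjusted p = 0.0155), with its EGFP arrays all under the floor.

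The profile most like that of Nkg7 over the 6 arrays, measured as root mean square distance between log2 profiles centred on their own means, belonged to Tespa1, an adaptor of T cell receptor signalling, at 0.23. I830077J02Rik (0.25), Radx, a protein of replication forks (0.29), Trem3, a receptor of myeloid cells (0.30), and Ms4a2, the beta chain of the IgE receptor (0.31), came next. Tespa1 read 5.99, 5.39 and 5.75 in EVI1 arrays, against 8.80, 8.52 and 8.49 in EGFP arrays, and Ms4a2 read 9.16, 8.58 and 8.43, against 11.01, 11.39 and 11.14. In these genes, as in Nkg7, most of the likeness is the step between the groups. For Ctsw, the member with the most positive difference, the nearest profiles were Xk, Cnpy2, Cttnbp2, Pnpla2 and Fads1, at distances of 0.033 to 0.051 and with log2 differences of 0.31 to 0.47. With 6 arrays such distances describe these samples only.

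The other granzymes gave no call. Of 7 measured (Gzmd, Gzme, Gzmf, Gzmg, Gzmk, Gzmm and Gzmn), none rose or fell by limma, 1 (Gzmn, -0.32 ± 0.11 SE) was lower at an unadjusted p under 0.05, and the list median was -0.05. Gzmn was called with array weights and without EGFP replicate 2, but 6 of the 7 genes were under the floor on every array. Among other serine proteases of blood cell granules, 6 of 13 fell, none rose by limma, nor at an unadjusted p under 0.05, and 7 were not called, with a median of -0.34. Over all genes 9.18% fell and 9.06% rose. Those with the smallest p were neutrophil elastase, Elane (-2.29 ± 0.18 SE, adjusted p = 0.000201), Ctsg, and proteinase 3, Prtn3 (-0.96 ± 0.13, adjusted p = 0.00155). Elane averaged 8.95 ± 0.31 in EVI1 arrays and 11.23 ± 0.23 in EGFP arrays (SD, n = 3 each). The falls of this list (Ctsg, Elane, Prtn3, Mcpt8, Cma1 and Prss34) are all counted again in the marker lists below. Ctsg, Mcpt8 and Cma1 were also counted in the protease run above, so these counts are not separate observations.

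Genes that process granule proteases or belong to the granule membrane went both ways. Of 13 measured, 5 rose, 2 fell and 6 were not called, with a median of 0.37, where 9.06% of all genes rose and 9.18% fell. The lysosomal proteases Ctsl (2.33 ± 0.25 SE, adjusted p = 0.000663), Ctsh (0.97 ± 0.16, adjusted p = 0.00430) and Ctsb (1.13 ± 0.27, adjusted p = 0.0204) rose. Cst7, which encodes cystatin F, an inhibitor of the cathepsin that activates granzymes, fell by 1.66 (adjusted p = 0.000583), with means of 10.48 ± 0.32 in EVI1 arrays and 12.14 ± 0.18 in EGFP arrays (SD, n = 3 each). Calr, a chaperone found in cytotoxic granules, fell by 0.39 (adjusted p = 0.0361). The granzyme activator itself, Ctsc, differed by 0.03 ± 0.14 (SE). This list had 3 calls without EGFP replicate 3 or without replicate 2 or 3 of EVI1, and 4 without EVI1 replicate 1. Calr was not called when any one array was left out, and Ctsb was not called without EGFP replicate 1 or 3 or EVI1 replicate 2 or 3.

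Serpins that block granule proteases also split. Of 7 measured, Serpinb6a, an inhibitor of cathepsin G, rose by 2.17 ± 0.26 (SE, adjusted p = 0.000979). Serpinb1a, an inhibitor of neutrophil elastase and cathepsin G, fell by 2.59 (adjusted p = 0.000169), and Serpinb6b fell as given above. The other 4, all Serpinb9 relatives, were under the floor on every array, and the list median was -0.15. Over all genes 18.2% were called. Serpinb1a averaged 9.11 ± 0.32 in EVI1 arrays and 11.70 ± 0.29 in EGFP arrays (SD, n = 3 each).

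The machinery that moves and fuses granules was mostly not called. Of 21 measured genes 4 rose, 1 fell and 16 were not called, with a median of 0.15, a share near the background of 18.2%. The fusion protein Snap23 (1.22 ± 0.13 SE, adjusted p = 0.000526), the priming factor Unc13d (0.70 ± 0.16, adjusted p = 0.0194) and the late endosome GTPase Rab7 (0.54 ± 0.12, adjusted p = 0.0189) rose. Dock8, which shapes the killer cell synapse, fell by 0.41 (adjusted p = 0.0469). The list had 1 call without replicate 1 or 3 of EGFP or replicate 3 of EVI1, and 2 calls without EVI1 replicate 2. Unc13d was not called without EGFP replicate 1 or 3 or EVI1 replicate 2 or 3, nor Rab7 without EGFP replicate 1 or 3 or EVI1 replicate 3, and Dock8 kept its call only when EVI1 replicate 1 was the array left out. Rab27a, the GTPase that docks cytotoxic granules, differed by 0.20 ± 0.15 (SE).

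Of the enzymes that build the glycosaminoglycan chains of serglycin, 7 of 20 fell and none rose by limma, where 2 were higher at an unadjusted p under 0.05. In the fit over all genes 9.18% fell and 9.06% rose. Chsy1, a chondroitin synthase (-0.83 ± 0.10 SE, adjusted p = 0.00118), Csgalnact2, which starts chondroitin chains (-0.98 ± 0.12, adjusted p = 0.00134), and Uxs1, which makes UDP-xylose (-0.70 ± 0.11, adjusted p = 0.00349), were lower. The list median was -0.15, and 3 genes were called without replicate 1 or 3 of EGFP or replicate 1 or 2 of EVI1, and 4 without EVI1 replicate 3. These enzymes, like Srgn, serve many cell types.

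Among regulators of the cytotoxic programme, 2 of 17 rose, 2 fell and 13 were not called, a share near the 18.2% called over all genes, with a median of 0.06. The repressor Bcl6 (1.63 ± 0.15 SE, adjusted p = 0.000366) and Zeb2, a factor of late NK cells (0.62 ± 0.13, adjusted p = 0.0119, and not called without EVI1 replicate 3), rose. Id2, which NK cells need to develop, fell by 1.88 (adjusted p = 0.00684) and Runx1, a core hematopoietic factor, by 0.81 (adjusted p = 0.00336). For Id2, EVI1 replicate 3 was under the floor at 6.46. Its difference ran from -2.16 to -1.49 when 1 array was left out. The lineage-defining factors of killer cells, Tbx21 (0.10) and Eomes (-0.16), were not called, with 3 EVI1 and 2 EGFP arrays under the floor for Tbx21 and all arrays under it for Eomes.

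Cytokines and receptors that induce granzymes gave 3 rises and 2 falls among 14 genes, with 9 not called and a median of 0.18. For this list and the next, the share over all genes was 9.06% higher and 9.18% lower. Il18 (4.45 ± 0.34 SE, adjusted p = 0.000178) and Il15 (2.61 ± 0.21, adjusted p = 0.000201), both cytokines that act on NK cells, rose (2 EGFP arrays were under the floor for Il18), as did the interleukin 12 receptor chain Il12rb2 (1.32 ± 0.22, adjusted p = 0.00465). Il15 averaged 10.92 ± 0.10 in EVI1 arrays and 8.31 ± 0.45 in EGFP arrays (SD, n = 3 each). Il2ra, whose EVI1 arrays were all under the floor, fell by 0.94 (adjusted p = 0.000569). Il12a, with 1 EVI1 array under the floor, fell by 1.45 (adjusted p = 0.00281). Il2rb, the receptor chain through which interleukin 15 acts, was under the floor on every array. A list of granzyme substrates and related genes of the target cell gave 2 rises and 6 falls among 15 genes, with a median of -0.24. Which of them granzymes cut was not tested. Nuclear lamin Lmnb1 (-1.39 ± 0.11, adjusted p = 0.000204), the DNA repair enzyme Parp1 (-1.38 ± 0.19, adjusted p = 0.00171) and the nuclease Nme1 (-0.77 ± 0.12, adjusted p = 0.00393) fell. The pore protein Gsdmd (1.02 ± 0.14, adjusted p = 0.00161) and the nuclease Trex1 (0.96 ± 0.15, adjusted p = 0.00300) rose.

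**Figure D4:**
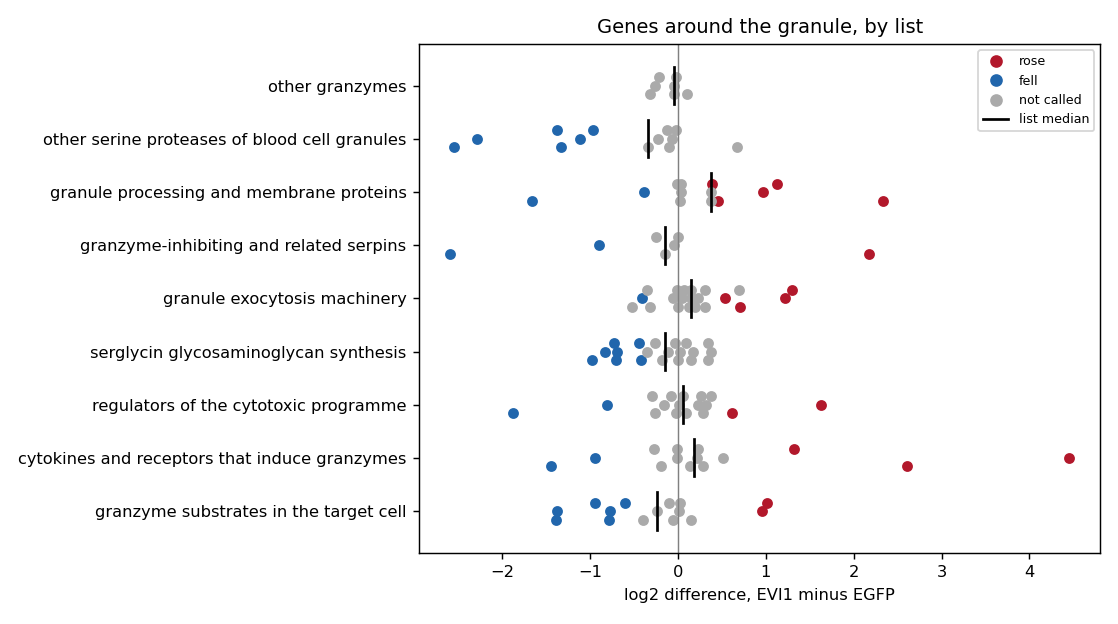
Log2 difference, EVI1 minus EGFP (horizontal axis), of every measured gene in the 9 lists around the granule, 1 point a gene, coloured by its call in the limma fit over all genes, with a black line at each list median. Other granzymes sit close to 0, other granule proteases reach -2.55, and Il18 lies at 4.45.

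Most NK cell markers were under the floor, and T cell markers lay on both sides of it. Of 16 measured NK cell markers 12 were under it on every array, among them Ncr1, Klrb1c, Klrk1, Klre1, Il2rb and Fasl, and 1 (Ccl5) was above it on every array. The mean level of the list was 5.89 to 6.10 in EVI1 arrays and 6.23 to 6.28 in EGFP arrays. Klrd1, a killer cell lectin-like receptor, fell by 1.76 and Klrk1 by 0.44. None rose, also at an unadjusted p under 0.05, where 5 were lower, among them Ccl5 (-0.77 ± 0.31 SE, not called). Over all genes 9.18% fell and 9.06% rose. With the replicate number as a block 4 genes of the list fell, with Klrb1c and Cd226 added, where 11% of all genes fell. Klrk1, Klrb1c and Cd226 were under the floor on every array, so the sizes of their differences are uncertain. Klrd1 averaged 5.86 in EVI1 arrays, all under the floor, and 7.62 in EGFP arrays, all above it. Of 14 T cell markers 3 fell (Lat, Ubash3a and Cd3g), and 1 rose (Thy1, also known on progenitors), or 2 with the replicate number as a block. For Cd3g all 3 EVI1 arrays and 2 EGFP arrays were under the floor, and EGFP replicate 2 was highest at 7.82, so the size of its fall is uncertain. The floor was above 6 of the 14 on every array, among them Cd3d, Cd4, Cd8a and Cd8b1, and below another 6 on every array (Cd3e, Cd247, Cd28, Lat, Thy1 and Ubash3a). The T cell list averaged 7.20 to 7.28 in EVI1 arrays and 7.29 to 7.51 in EGFP arrays.

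Many markers of myeloid granule cells were bright and many were lower in EVI1 arrays, though some neutrophil markers rose. Of 13 mast cell and basophil markers 8 fell, none rose by limma, also at an unadjusted p under 0.05, and 4 were under the floor on every array (Tpsb2, Tpsab1, Mcpt4 and Mrgprb1). Over all genes 9.18% fell and 9.06% rose, or 11% and 10.9% with the replicate number as a block. Cpa3, a mast cell carboxypeptidase, averaged 11.20 in EVI1 arrays and 12.47 in EGFP arrays, and Ms4a2 8.72 and 11.18. The mean level of this list was 8.19 to 8.27 in EVI1 arrays and 9.01 to 9.37 in EGFP arrays. Among 14 neutrophil markers 6 fell and 2 rose, or 9 fell and 2 rose with the replicate number as a block, with list means of 8.71 to 9.25 in EVI1 arrays and 9.77 to 10.34 in EGFP arrays. The 2 that rose were Ly6g (2.59, adjusted p = 0.00186) and Mmp9 (1.92, adjusted p = 0.00200). For Ly6g 3 EGFP arrays were under the floor, and for Mmp9 2 were. S100a8, S100a9 and Cxcr2 were not called in the main fit. Monocyte and macrophage markers gave 3 falls and 1 rise (Cd68, 1.16) among 7, or 6 falls and 1 rise with the replicate number as a block. Stem and progenitor markers gave 5 falls among 8. Of 6 B cell markers 1 rose, and of 6 erythroid and megakaryocyte markers 1 rose and 1 fell. In these sorted populations fewer cells of a type and less RNA per cell cannot be told apart, and the part of mast cell, basophil or neutrophil genes in the lower Nkg7, Gzmb and Srgn was not tested.

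**Figure D5:**
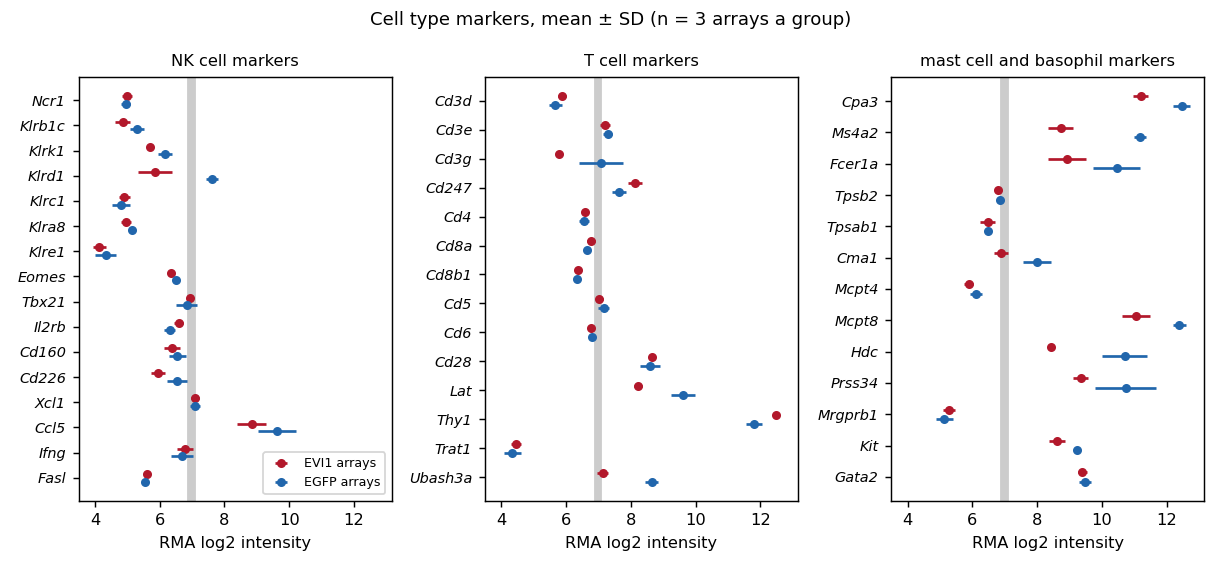
Mean ± SD of the RMA log2 intensity (horizontal axis, n = 3 arrays a group) of NK cell, T cell, and mast cell and basophil markers, with EVI1 arrays in red above EGFP arrays in blue. Most NK cell markers lie left of the grey olfactory receptor band, while Cpa3, Mcpt8 and Ms4a2 lie far right of it and lower in EVI1 arrays.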

How the data were processed

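The authors deposited log2 intensities, 1 per probe set and array, made by RMA per the submitters' processing notes; the sources used here give neither its version nor a genome build. They were used as deposited. Probe sets with exactly 1 gene symbol in GEO's platform annotation (21640 of 34760) were kept, and each gene was read by its brightest probe set, giving 19937 genes. EVI1 and EGFP arrays were compared with limma 3.58.1 in R 4.3.3 (lmFit, eBayes, two-sided), with Benjamini-Hochberg adjustment over all genes, and a call means an adjusted p under 0.05. The fit was tested on simulated data with noise drawn independently for each array, so that test did not cover the pairing described next. Same-numbered arrays deviated together from their group means (r = 0.491, 0.269 and 0.197 across genes), so the numbers were taken to pair the arrays. The main fit, which gave every call, SE and adjusted p not marked otherwise, did not model this pairing. Only the alternative with the replicate number as a block did. The members, gene lists and motifs were chosen with earlier results of these data known. The lists held 143 pathway symbols, 127 measured, and 93 marker symbols, 82 measured. Named beside the members were Mecom, marker genes, and in each pathway list up to 3 rising and 3 falling called genes with the smallest p; the members' genome neighbours, and list genes given with values though not called, were named after their values were seen. Promoters are RefSeq's, on GRCm38.p6. The number of arrays limits precision.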

Additional observations from a re-analysis of the deposited data

How the results depend on the processing

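The 12 alternatives were the replicate number as a block, a further quantile normalisation, trend with robust estimation, mean of probe sets, a filter under the 25th percentile, array weights, and leaving out each of the 6 arrays. When 1 array was left out, the Gzmb difference ran from -1.49 to -0.89, Srgn from -0.55 to -0.42, Serpinb9 from -0.75 to -0.55, Ctsw from 0.31 to 0.44, Gzma from -0.11 to 0.0048, Gzmc from -0.66 to 0.028 and Prf1 from -0.02 to 0.07. The filter removed Gzma. Members called numbered 4, also with the replicate block, 5 with trend and robust estimation or with the filter (Ctsw added), and 2 to 4 when 1 array was left out. All genes called numbered 3638, 4361 with the replicate block, and 2289 (without EVI1 replicate 3) to 4098 when 1 array was left out. Other granzymes gave 1 call with array weights and 0 to 1 when 1 array was left out. Leaving out 1 array gave 3 to 6 calls for granule processing genes, 1 to 6 for exocytosis genes and 3 to 7 for glycosaminoglycan enzymes. The Mecom difference was -0.87 (adjusted p = 0.0306, without EGFP replicate 1) to -0.30 when 1 array was left out. Over all 12 alternatives, the 32 named list genes gave 359 values with the same call, 25 that lost it and none reversed; the replicate block changed no named list gene's call. The signal over the floor limits Gzma, Gzmc, Ctsw and Serpinb9.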
